A study of Mus musculus with 4 samples.

Results

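Macrophages were 971 of the 61172 barcodes in this single-cell RNA sequencing study of mouse embryonic heart ventricles. They were chosen by a gate on unique molecular identifier (UMI) counts, that is, on counts of distinct captured transcript molecules. A barcode was first kept when it held at least 1000 genes, less than 10% mitochondrial UMIs and less than 1% UMIs of 8 cardiomyocyte genes, which left 15568 barcodes. It was then called a macrophage when C1qa, C1qb and C1qc together reached 5 UMIs, Tyrobp reached 1 UMI and the endothelial genes Cdh5, Emcn and Plvap together stood at 1 UMI at most. These genes chose the cells, so their levels are a description here and carry no test.

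The study asked what loss of the transcription factor Gata4 in the endothelium does to the developing ventricle. In KO embryos both Gata4 alleles were floxed (Gata4fl/fl), and in het embryos 1 allele was floxed (Gata4fl/+). Both groups carried Cdh5(Pac)-CreER, a tamoxifen-inducible Cre recombinase under an endothelial promoter, and the Rosa26mTmG reporter, which makes a red membrane protein until Cre acts and membrane EGFP afterwards. All received tamoxifen at E9.5 (embryonic day) and were taken at E12.5. There were 2 libraries per group. How many embryos went into each is not stated, so every p-value below measures the spread between these libraries, which may be technical. Cre in this line acts in cells that use the Cdh5 promoter, so macrophages carry a recombined allele only where they or their precursors did. Embryos without Cre or without a floxed allele were not analysed here.

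Heart macrophages of this stage come from progenitors that form in the yolk sac and, through fetal liver, from haemogenic endothelium, a Cdh5-expressing endothelium that gives rise to blood. They survive on signals through the receptor Csf1r, and their identity depends on the transcription factor PU.1. C1q, the recognition part of the classical complement pathway, is made by tissue macrophages, and Tyrobp is the signalling adaptor of several macrophage receptors. Resident macrophages of mouse tissues commonly carry Lyve1, Mrc1, Folr2 and Timd4, whereas cells recently derived from monocytes carry Ccr2 and MHC class II.

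The promoters of C1qb, C1qc and Mrc1 are shown because the first 2 belong to genes of the gate and the third is a leading resident-type gene. Each runs from 250 bases before to 50 bases after the annotated start in RefSeq (build GRCm38.p6), and capitals mark GAGGAA on either strand (TTCCTC on the other), the core that PU.1 and other Ets factors recognise.
C1qb, chr4:136886151-136886450, minus strand: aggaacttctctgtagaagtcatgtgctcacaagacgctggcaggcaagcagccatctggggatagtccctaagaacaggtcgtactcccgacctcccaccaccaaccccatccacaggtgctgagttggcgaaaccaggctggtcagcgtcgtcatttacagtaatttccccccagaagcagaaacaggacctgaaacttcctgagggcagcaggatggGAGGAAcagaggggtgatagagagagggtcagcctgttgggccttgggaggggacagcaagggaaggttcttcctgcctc
C1qc, chr4:136892865-136893164, minus strand: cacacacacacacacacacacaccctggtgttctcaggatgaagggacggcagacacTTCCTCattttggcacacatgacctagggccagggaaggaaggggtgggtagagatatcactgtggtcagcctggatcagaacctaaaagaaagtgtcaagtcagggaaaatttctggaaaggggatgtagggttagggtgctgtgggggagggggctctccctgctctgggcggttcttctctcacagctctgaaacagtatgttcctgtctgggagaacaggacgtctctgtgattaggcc
Mrc1, chr2:14229164-14229463, plus strand: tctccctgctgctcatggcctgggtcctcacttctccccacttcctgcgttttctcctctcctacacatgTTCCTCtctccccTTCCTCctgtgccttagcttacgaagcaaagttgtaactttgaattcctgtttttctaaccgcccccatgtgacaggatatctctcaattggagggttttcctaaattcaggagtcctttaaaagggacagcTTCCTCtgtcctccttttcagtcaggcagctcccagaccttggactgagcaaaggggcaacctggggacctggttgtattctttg
The motif occurs 1 time in the C1qb and C1qc windows and 3 times in the Mrc1 window. It occurs in 28.3% of 32851 promoter windows of the same length, and in those of 8 of the 16 leading macrophage genes, named further on, that have an entry. A match of 6 letters is a description of these windows and not a bound site.

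The macrophages numbered 330 and 80 in KO libraries 1 and 2, and 356 and 205 in het libraries 1 and 2. Their median UMI counts were 21686.5 and 45811 in the KO libraries and 7988.5 and 28885 in the het libraries, with 1852 to 128308 UMIs per cell. The sums over all macrophages of a library were 7923967 and 3721058 UMIs in KO, and 5148837 and 6123663 UMIs in het. No macrophage barcode was shared between libraries, although 23 to 103 barcodes were shared between pairs of libraries overall. Scrublet called 19 and 2 macrophages doublets in KO and 0 and 10 in het, but its automatic threshold worked in 1 of 4 libraries only, so these counts are rough. Library het 1 stands apart, with the shallowest macrophages and 0.203% of their UMIs from the 8 cardiomyocyte genes, against 0.121% and 0.0870% in the KO libraries and 0.0883% in het 2. Library KO 2 stands apart as well, with the fewest macrophages and with no Ddx3y UMI among them, a Y-linked gene that had 22.6 counts per 1000000 UMIs (CPM) in KO 1, and 36.3 and 56.0 in het 1 and het 2. Globin UMIs were 3.70% and 0.670% in KO and 2.82% and 2.46% in het. In these sums, fewer macrophages of one kind and less RNA per macrophage cannot be told apart.

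The C1q, Tyrobp and cardiomyocyte edges held mostly het 1 barcodes. There were 30 members at exactly 5 C1q UMIs, 25 of them in het 1, and 12 barcodes at 4 UMIs were left out. At exactly 1 Tyrobp UMI stood 40 members, 31 of them in het 1, and 22 barcodes with 0 were left out. The endothelial edge was filled in every library: 1 UMI was found in 177 members (61 and 15 in KO, 63 and 38 in het) and none in 794, and 37 barcodes with 2 were left out. The limit on cardiomyocyte genes removed 563 barcodes that met every other condition, of which 517 were in het 1.

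The label fits the markers. All 18 genes of a macrophage identity list were detected and tested, among them Csf1r, Adgre1 (F4/80), Cx3cr1 (the fractalkine receptor), Fcer1g and Lgmn (legumain, a lysosomal protease). Genes with the highest ratio of macrophage level to the level in all other kept barcodes, among those with at least 100 CPM in every library, were F13a1 (coagulation factor XIII subunit) at a ratio of 118, Mrc1 (the mannose receptor CD206) at 106, Lyve1 (a hyaluronan receptor) at 104, Fcrls at 103, Ms4a6b at 94.97 and Trem2 (a lipid-sensing receptor that signals through Tyrobp) at 94.7. The others of the leading 20 were Fcgr2b, Ifi207, Ms4a6d, Cd14, Cx3cr1, Ccr1, Fcgr1, Ms4a6c, C3ar1, Adgre1, Fcgr3, Mpeg1, Ly86 and Ctss, at ratios down to 66.9. These ratios follow from the gate and are given without a test. A lymphoid list of 14 genes summed to 27.3 and 33.9 CPM in KO macrophages and 29.3 and 46.2 CPM in het macrophages, against 13.2 and 6.55 CPM in other kept KO barcodes and 10.8 and 12.7 CPM in other kept het barcodes. Of its members 4 had no UMI in any library, the T cell gene Cd3e (a CD3 chain) among them. Cd79b had 182 and 116 UMIs in KO and 132 and 242 in het.

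**Figure D1:**
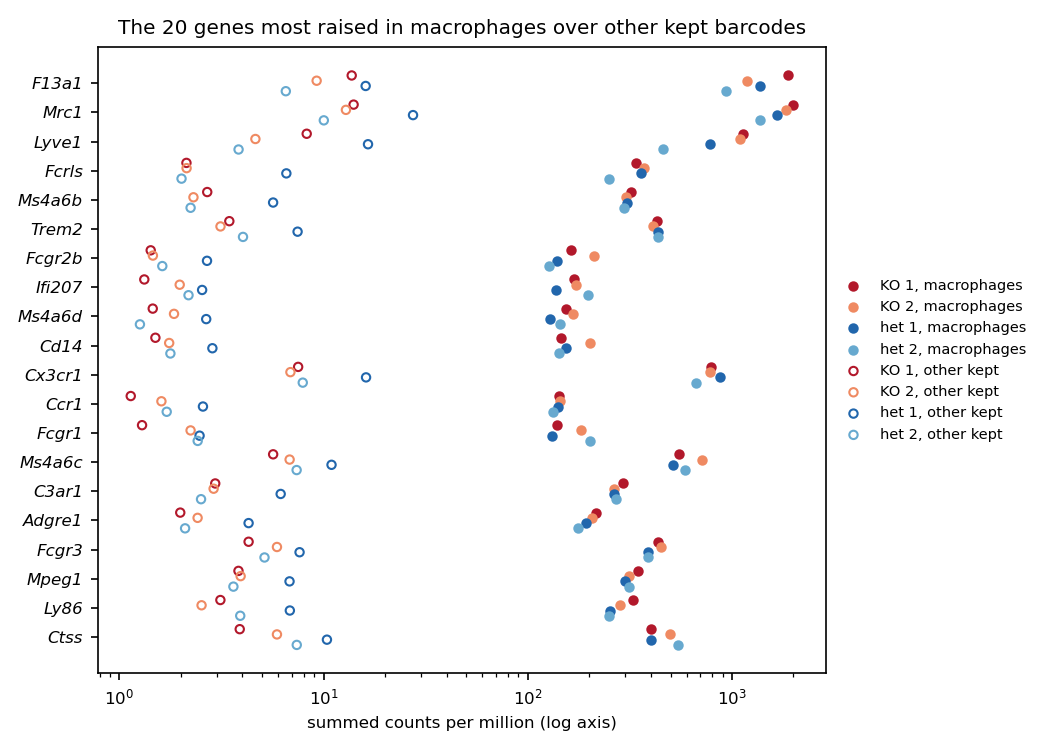
Levels of the 20 leading macrophage genes in plain CPM on a log axis, with 1 point per library, filled for macrophages and open for all other kept barcodes of the same library. In every gene drawn the 4 macrophage points lie far to the high side of the 4 others, with ratios of means between 66.9 (Ctss) and 118 (F13a1).

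Macrophages were 7.09% of kept barcodes in KO 1 (95% Wilson interval 6.38 to 7.86) and 3.11% in KO 2 (2.50 to 3.85). They were 9.07% in het 1 (8.21 to 10.0) and 4.65% in het 2 (4.06 to 5.31). The groups overlapped, and the 2 libraries of a group differed more than the groups did. The means were 5.10% ± 2.81 in KO and 6.86% ± 3.13 in het (SD, n = 2 each), a difference of -1.76 percentage points (two-sided exact permutation p = 0.667; with 4 libraries p cannot go below 0.333). The difference was 0.227 without KO 2 and 0.450 without het 1, so its direction rests on those libraries. Its size moved with the gate, to -0.699 at a cardiomyocyte limit of 2% and -0.666 at a C1q minimum of 10. Under these 2 settings het 1 stood at 6.57% and 6.68%, below KO 1 at 6.74% and 6.94%. The intervals cover counting error only.

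**Figure D2:**
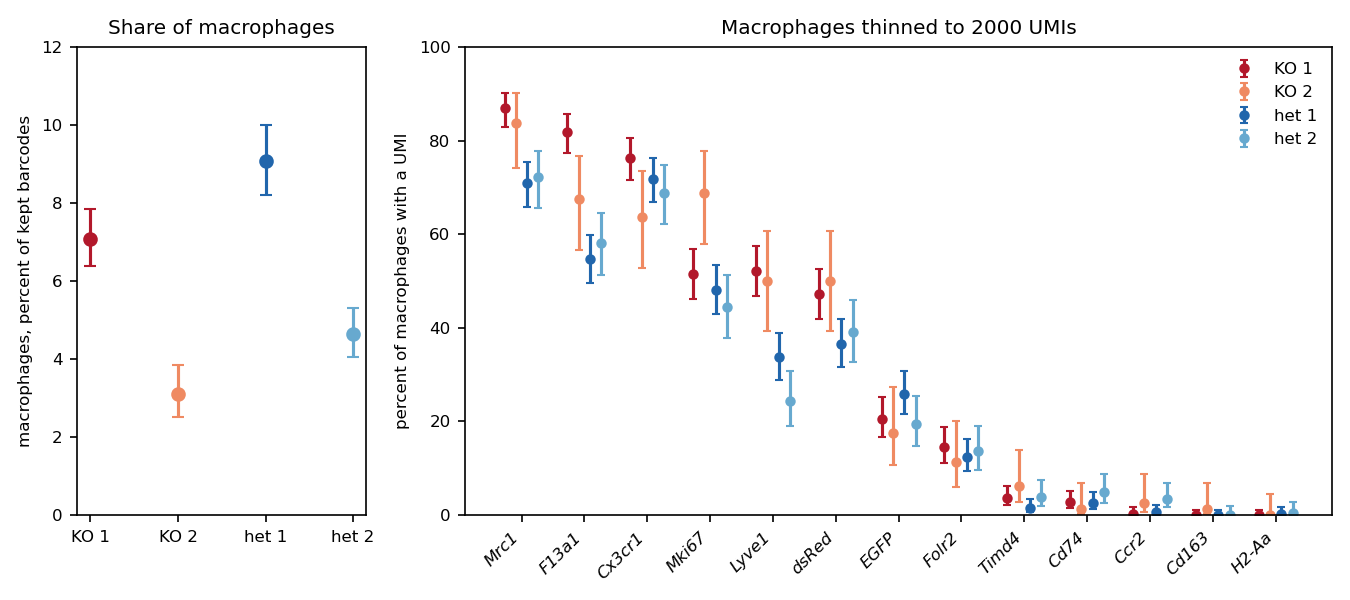
Left, macrophages as a percentage of kept barcodes in each library with 95% Wilson intervals. Right, the percentage of macrophages with at least 1 UMI of each gene after every cell was thinned to 2000 UMIs, with 1 point and 95% Wilson interval per library. Mrc1, F13a1, Lyve1, Mki67 and dsRed are higher in both KO libraries than in both het libraries. For dsRed the difference was -0.424 percentage points at 3000 UMIs. H2-Aa is found in 0 of 330 and 0 of 80 KO cells and in 1 of 347 and 1 of 205 het cells. The shares of macrophages among kept barcodes overlap between groups.

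Gata4 itself was scarce in macrophages. Its UMIs numbered 60 and 18 in KO and 61 and 38 in het, in 35 and 14 KO cells and 46 and 22 het cells, or 7.49 and 4.92 CPM in KO against 11.7 and 6.36 CPM in het. Levels here and below are CPM scaled by the trimmed mean of M-values (TMM) unless said otherwise. The groups overlapped, and the log2 difference, KO minus het, was -0.49 (SE 0.40, unadjusted p = 0.257 by edgeR's quasi-likelihood test), and 0.05 among macrophages with at least 10000 UMIs. In barcodes of an endothelial gate (5 or more UMIs of Cdh5, Emcn and Plvap, and at most 1 of C1q) Gata4 stood at 207 and 185 plain CPM in KO and 149 and 124 in het, with a log2 difference of 0.53. Gata4 lies at chr14:63198922-63271692 on the minus strand (GRCm38). The chemistry reads transcript ends, which may lie outside the deleted part, so these values do not check the labels. Neil2, a DNA glycosylase gene beside Gata4, had 18 and 9 UMIs in KO macrophages and 11 and 9 in het macrophages, a log2 difference of 0.38, against 1.68 in the endothelial gate.

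Across all genes, no gene passed an adjusted p of 0.05 between KO and het macrophages. The edgeR quasi-likelihood test on sums per library covered 12203 genes and called 0 (0% higher, 0% lower), with 189 genes (1.55%) at an unadjusted p under 0.05. DESeq2 called 1, Hspa1a, and limma-voom called 0, with 101 and 202 genes at an unadjusted p under 0.05. With 1 library left out, 32 genes were called without KO 1, 46 without KO 2 and 0 without either het library, and without the filter on low counts 99 were called. Both KO libraries lay above both het libraries in 12.05% of genes tested and below both in 12.54%, and these shares are the background for each count below. Genes named below are thus given as values, and none is called changed. Where "apart" is used, both libraries of a group lay on the same side of both libraries of the other.

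Resident-type genes stood mostly above 0. Of the 15 of 18 genes in that list that passed the filter on low counts, 13 had a positive log2 difference, 4 were apart with KO higher and none with KO lower, and the median was 0.14, beside 0.001 over all genes tested. Lyve1 had 1114 and 1111 CPM in KO, against 766 and 471 CPM in het. Both KO libraries lay above both het libraries, with a log2 difference of 0.85 (SE 0.24, unadjusted p = 0.0109 and adjusted p = 0.9999 by edgeR). It ranged between 0.56 without het 2 and 1.24 without het 1 (Lyve1, KO minus het). Mrc1, the mannose receptor, had 1961 and 1870 CPM in KO, against 1627 and 1402 CPM in het, apart by a log2 difference of 0.34. Pf4, the chemokine CXCL4, had 727 and 776 CPM in KO, against 531 and 599 CPM in het, apart by 0.41 on the log2 scale (unadjusted p = 0.0279). Pf4 is also the main platelet chemokine. The other tested gene of a megakaryocyte list of 10, Gp5 (a platelet glycoprotein), had 15 and 9 UMIs in KO, against 0 and 1 UMIs in het. In the endothelial gate that list, Pf4 included, summed to 188 and 161 plain CPM in KO and 35.6 and 17.6 in het. In all kept barcodes other than macrophages it summed to 211 and 198 in KO and 168 and 61.8 in het. The part of such RNA in the Pf4 difference was not tested. F13a1 had 1860 and 1209 CPM in KO, against 1354 and 960 CPM in het, and its groups overlapped. In the endothelial gate the median of the resident-type list was 0.01 over the 10 genes tested there.

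At fixed depth, the share of cells with a transcript was higher in both KO than in both het libraries for Lyve1, Mrc1 and F13a1. This was not particular to resident-type genes. It also held for Mki67, given below, and for the red reporter dsRed, while H2-Aa was apart with KO lower through 1 cell in each het library. After each macrophage was thinned to 2000 UMIs, which left out 9 shallower cells of het 1, Lyve1 was found in 52.1% and 50% of KO macrophages, against 33.7% and 24.4% of het macrophages. Mrc1 was found in 87.0% and 83.8% in KO, against 70.9% and 72.2% in het. The differences, 22.0 and 13.8 percentage points, each had an exact permutation p of 0.333, the smallest these 4 libraries allow. The Lyve1 difference was 17.8 percentage points without thinning, 17.1 without doublets and 15.9 at 3000 UMIs. At 3000 UMIs Lyve1 was found in 54.3% and 46.8% of KO and 42.5% and 26.9% of het macrophages. In the endothelial gate at 2000 UMIs 0.853% to 1.55% of barcodes held a Lyve1 UMI. F13a1 was found in 81.8% and 67.5% of KO macrophages and in 54.8% and 58.0% of het macrophages. The reporter dsRed was found in 47.3% and 50% of KO and 36.6% and 39.0% of het macrophages. Its difference was 10.8 percentage points, and -0.424 at 3000 UMIs. Folr2, the folate receptor beta, was found in 14.5% and 11.2% in KO and in 12.4% and 13.7% in het, which overlap. Timd4, a receptor for phosphatidylserine on dying cells, was found in 3.64% and 6.25% in KO and in 1.44% and 3.90% in het, which overlap as well.

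Of the monocyte and antigen presentation lists, Ccr2, Cd74 and H2-Aa were low and uneven. The whole lists were more even. Antigen presentation genes summed to 1084 and 1214 plain CPM in KO macrophages and 1003 and 1170 in het macrophages. Monocyte genes summed to 606 and 593 in KO and 630 and 646 in het. Ccr2, the receptor for CCL2, had 1.12 and 8.20 CPM in KO, against 6.69 and 26.6 CPM in het, which overlap. Cd74, the MHC class II invariant chain, had 7.74 and 8.75 CPM in KO, against 16.2 and 36.8 CPM in het, apart by a log2 difference of -1.70 (unadjusted p = 0.00491). Of the 220 Cd74 UMIs of het 2, 102 lay in 1 cell, and without het 2 the log2 difference (Cd74, KO minus het) was -0.97. At 2000 UMIs Cd74 was found in 2.73% and 1.25% of KO and 2.59% and 4.88% of het macrophages, which overlap. H2-Aa, an MHC class II alpha chain, had 0 and 0 UMIs in KO, against 18 and 49 UMIs in het, where 7 and 2 cells held it and 46 of the UMIs of het 2 lay in 1 cell. At 2000 UMIs H2-Aa was found in 0 of 330 and 0 of 80 KO macrophages, which allows shares of cells with a UMI at this depth of up to 0.909% and 3.75%, and in 0.288% and 0.488% of het macrophages, so no difference in share was detectable at this depth. Of the 12 of 16 monocyte genes that passed the filter, 4 had a positive and 8 a negative log2 difference, 2 were apart with KO higher and 3 with KO lower, and the median was -0.23. That median was 0.59 without het 2 and 0.08 without KO 1. Of the 10 of 13 antigen presentation genes that passed it, 1 was apart with KO higher and 2 with KO lower, with a median of -0.06.

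Genes of glycolysis and of the response to low oxygen all stood above 0. All 21 in the list had a positive log2 difference, 12 of 21 were apart with KO higher against 12.05% of all genes, and the median was 0.23. Ndrg1, a hypoxia-responsive gene, had 19.5 and 17.2 CPM in KO, against 7.84 and 7.69 CPM in het, apart by a log2 difference of 1.25 (SE 0.21, unadjusted p = 0.000905 by edgeR). Bnip3, a mitophagy receptor gene, had 180 and 168 CPM in KO, against 103 and 105 CPM in het, apart by 0.74. Ankrd37 had 32.3 and 36.4 CPM in KO, against 18.7 and 21.2 CPM in het, apart by 0.77. Egln3, a prolyl hydroxylase of the oxygen-sensing pathway, had 18.4 and 21.1 CPM in KO, against 9.56 and 13.2 CPM in het, apart by 0.78. Slc2a1, the glucose transporter GLUT1, had 67.3 and 58.0 CPM in KO, against 36.5 and 48.0 CPM in het, apart by 0.57. The enzymes themselves differed less, with Ldha (lactate dehydrogenase A) at 0.23 and Pgk1 (phosphoglycerate kinase) at 0.23 on the log2 scale. In the endothelial gate the list's median was 0.40, over barcodes of the same libraries. Of 26 genes of oxidative phosphorylation, 14 stood above and 12 below 0, 3 were apart with KO higher and none with KO lower, with a median of 0.01.

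Core macrophage functions were close to 0 in KO minus het. The identity list had 11 genes above and 7 below 0, with 1 apart in each direction and a median of 0.01. Csf1r had 585 and 511 CPM in KO, against 589 and 503 CPM in het, a log2 difference of 0.01 (SE 0.16). Medians were -0.01 for 11 genes of the Csf1r axis, 0.07 for 18 of phagocytosis, 0.06 for 26 lysosomal genes, 0.03 for 14 of iron and heme handling and 0.08 for 19 Fc receptors and their adaptors. They were -0.01 for 9 complement genes, -0.06 for 18 chemokines and cytokines, 0.08 for 14 growth factors and -0.04 for 13 genes best known from microglia. Of the lysosomal genes 7 were apart with KO higher and 2 with KO lower. Fcgr2b, the inhibitory Fc gamma receptor, had 161 and 215 CPM in KO, against 137 and 130 CPM in het, apart by 0.49. Spp1 (osteopontin), from the lipid list, had 223 and 161 CPM in KO, against 76.4 and 127 CPM in het, apart by 0.92 (unadjusted p = 0.0148), and the other 18 tested genes of that list had unadjusted p-values over 0.05.

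For regulators, signals and stress genes, counts of members apart stand beside 12.05% of all genes tested with KO higher and 12.54% with KO lower. Of 21 tested macrophage transcription factors 10 stood above and 11 below 0, with 1 apart with KO higher and 4 with KO lower. Id3, an inhibitor of helix-loop-helix factors, had 47.1 and 70.0 CPM in KO, against 83.7 and 106 CPM in het, apart by a log2 difference of -0.71. Spic, which in mouse drives red pulp macrophage identity, stood at a log2 difference of -2.40 from 4 and 2 UMIs in KO against 10 and 22 UMIs in het. Cxcl10, an interferon-induced chemokine, had 10.4 and 16.4 CPM in KO, against 23.5 and 36.5 CPM in het, apart by -1.20. The interferon response list had 11 of 14 genes above 0, 2 apart with KO higher and none with KO lower, and a median of 0.14, which was -0.29 without het 1 and -0.43 without KO 2. Hspa1a, an inducible heat shock protein gene, had 5.50 and 2.46 CPM in KO, against 22.2 and 22.9 CPM in het, apart by -2.39 (unadjusted p = 0.000307 by edgeR, adjusted p = 0.0035 by DESeq2). Of the 116 Hspa1a UMIs of het 1, 66 lay in 1 cell. The immediate early and stress list had 12 of 18 genes below 0, 4 apart with KO lower and none with KO higher, and a median of -0.12, which was 0.24 without het 1. Tmem119, a gene used to mark microglia, had 3.37 and 5.47 CPM in KO, against 11.5 and 11.2 CPM in het, apart by -1.41.

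Transcripts of dividing cells were found in many macrophages. At 2000 UMIs Mki67, which marks dividing cells, was found in 51.5% and 68.8% of KO macrophages and in 48.1% and 44.4% of het macrophages, against 20.7% to 30.6% of endothelial-gate barcodes. In erythroid-gate barcodes, defined by at least 20% globin UMIs, it was found in 43.3% and 45.6% in KO and in 17.2% and 19.6% in het. The macrophage shares of Mki67 were apart with KO higher, by 13.9 percentage points (exact permutation p = 0.333), and by 5.98 at 3000 UMIs. The level of Mki67 in macrophages was 758 and 973 CPM in KO and 763 and 536 CPM in het, which overlap. Of 22 G2/M genes 21 stood above 0, none were apart, and the median was 0.18, which was -0.17 without KO 2. Of 20 G1/S genes 8 stood above and 12 below 0.

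Outside the lists, the genes with the lowest p among those with at least 20 CPM and groups apart, given as values, included Gfra2 and Ccnd2. Gfra2, a receptor for neurturin, had 38.0 and 30.9 CPM in KO, against 14.1 and 16.7 CPM in het, a log2 difference of 1.16 (SE 0.20, unadjusted p = 0.000861). Ccnd2, the G1 cyclin D2, had 32.5 and 31.7 CPM in KO, against 63.3 and 54.7 CPM in het, a log2 difference of -0.88 (SE 0.15, unadjusted p = 0.000931). The others higher in KO were Plau (0.79, urokinase), Bhlhe41 (0.66), H2ac6 (0.91), Tmx4 (0.48), Aph1c (0.65) and Mt2 (0.64, a metallothionein), with Bnip3, Ankrd37 and Lyve1 from the lists. Others lower in KO were Tuba1a (-0.82), Cnn2 (-0.70), Tmem176b (-0.81), Tmem176a (-0.72), Rbpms (-0.77), Ighm (-0.56) and Maged2 (-0.54), with Cxcl10.

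Markers of other cell types also stood at different levels in the groups, and their part in these differences was not tested. The 16 cardiomyocyte genes summed to 1976 and 1350 CPM in KO, against 3355 and 1441 CPM in het, with 14 of 16 below 0 and a median of -0.52. Of 12 mesenchymal genes tested 11 stood below 0, with a median of -0.82. Of 15 endothelial genes tested 11 stood below 0 and 5 were apart with KO lower, with a median of -0.36. All 7 epicardial genes tested stood above 0, but the list summed to 108 and 23.1 CPM in KO and 38.3 and 35.8 CPM in het, so KO 1 alone was high. The 10 neutrophil genes summed to 181 and 585 CPM in KO and 18.5 and 454 CPM in het, and 1 cell held 711 of the 784 S100a8 UMIs of KO 2.

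**Figure D3:**
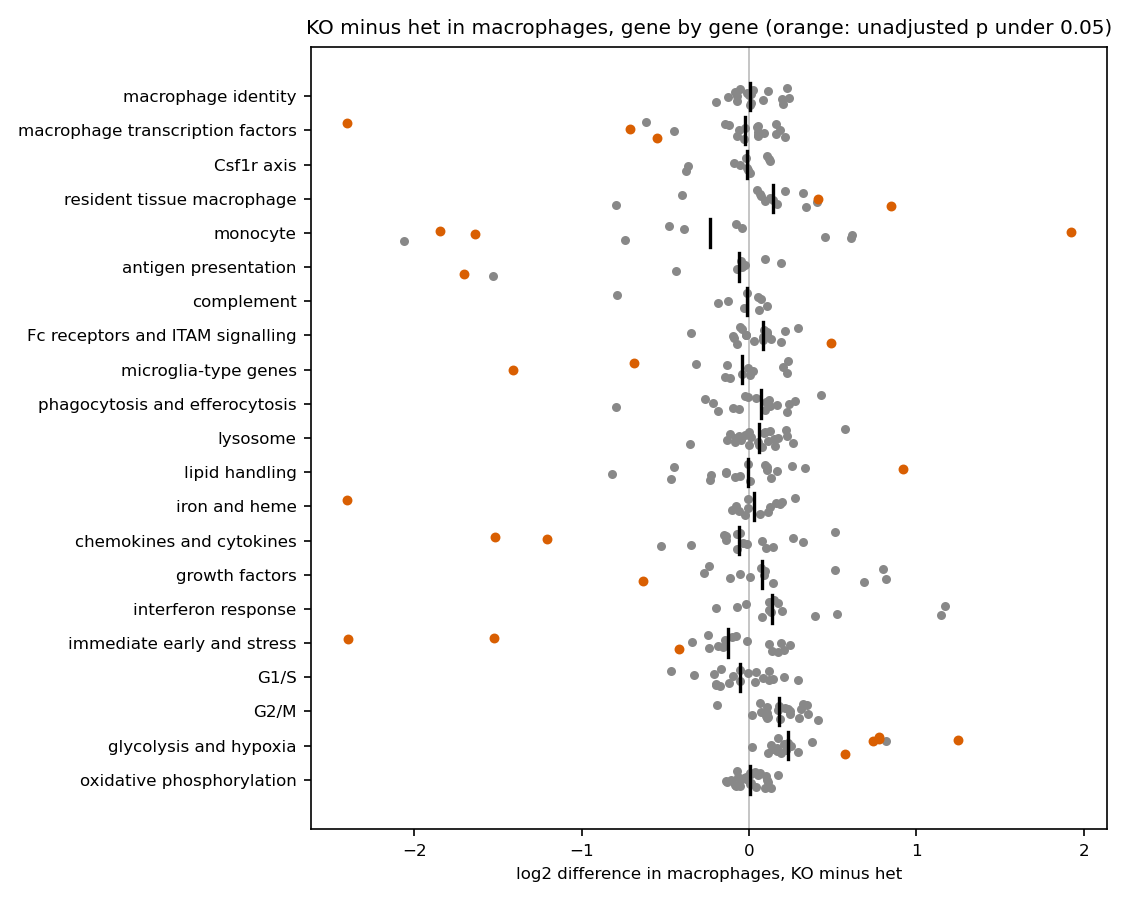
Log2 difference, KO minus het, of each tested gene (points) in 21 gene lists, with the median of each list as a black bar and genes at an unadjusted edgeR p under 0.05 in orange. Every point of the glycolysis and hypoxia list lies to the right of 0, while most lists centre near 0. H2-Aa, at 0 UMIs in KO, is not drawn.

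Whether KO minus het differed between macrophages and endothelial-gate barcodes was tested as an interaction with the library as a block. No gene of 15353 passed an adjusted p of 0.05 (0%), and 600 (3.91%) had an unadjusted p under 0.05. Without KO 1, KO 2, het 1 or het 2 there were 211, 126, 3 or 12 calls, and 158 without the filter on low counts. Among genes with the lowest p, Lyve1 had a log2 difference of 0.85 in macrophages and -0.31 in the endothelial gate, an interaction of 1.22 (unadjusted p = 0.00025, adjusted p = 0.259 by edgeR). Isg15 (0.90), Ifit3 (2.13), Rgs1 (2.74) and Ptpre (0.85) had positive interactions as well. Bin2 (-2.99, adjusted p = 0.0765 by edgeR), Pf4 (-2.56), Id1 (-1.24), Srgn (-1.29) and Hspa1a (-2.42) had negative ones. An interaction is the macrophage difference minus that in the endothelial gate, so its sign need not be that of the macrophages. Pf4 was higher in KO macrophages, and the megakaryocyte list had an endothelial-gate median of 3.53 over 2 tested genes. The interferon response list, with Isg15 and Ifit3, had a median of 0.14 in macrophages and -0.34 in the endothelial gate. Bin2, Pf4 and Srgn are genes of blood cells. Gata4 had an interaction of -0.97 (unadjusted p = 0.00931).

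Macrophages also varied among themselves within each library. Ranked by the variance of Pearson residuals, given each cell's total, over 2790 genes, the 15 most variable were Apoe, Hist1h2ap, Lyve1, Lyz2, H1f5, Malat1, Hmox1, Fth1, Cxcl2, F13a1, H2ac8, Fos, Pf4, Ifi27l2a and Selenop. For Apoe, a lipid carrier, the residual variance was 58.7 and 24.1 in KO and 37.3 and 42.9 in het, and for Lyve1 it was 29.6 and 34.5 in KO and 18.6 and 26.2 in het. The median over all ranked genes was 1.36 and 1.47 in KO and 1.18 and 1.40 in het. The list mixes a resident-type gene group, histone genes of dividing cells, Hmox1 (heme oxygenase 1) and Fth1 (ferritin heavy chain) of iron handling, and Lyz2 (lysozyme).

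F13a1 and Mrc1 were found more often in macrophages with a Lyve1 UMI than in those without one. At 2000 UMIs F13a1 was found in 97.1% and 87.5% of KO macrophages with a Lyve1 UMI, against 65.2% and 47.5% of those without. In het macrophages these shares were 79.5% and 92.0% with, against 42.2% and 47.1% without. Mrc1 was found in 97.1% and 90.0% of KO macrophages with Lyve1 against 75.9% and 77.5% of those without, and in 92.3% and 96.0% of het macrophages with Lyve1 against 60.0% and 64.5% of those without. Mki67 did not follow Lyve1 in that way, at 52.9% and 72.5% with against 50% and 65% without in KO, and at 45.3% and 44.0% with against 49.6% and 44.5% without in het. These are descriptions over cells of a library, which are not replicates.

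The reporter divided the macrophages. The classes were set after the EGFP counts and a first division's profiles had been seen, so the comparison between them was chosen with its results in view and its p-values are not independent evidence. Among the 705 macrophages with at least 10000 UMIs, 31 were EGFP-high (at least 10 EGFP UMIs per 10000), 666 were EGFP-low (under 5) and 8 lay between. The EGFP-high cells numbered 6 and 6 in KO and 6 and 13 in het. They were 2.01% and 8.33% of KO macrophages of that depth and 4.08% and 6.91% of het macrophages, which overlap, with means of 5.17% ± 4.47 in KO and 5.50% ± 2.0 in het (SD, n = 2 each; exact permutation p = 1). By the same limits 67.8% and 78.5% of KO endothelial-gate barcodes and 64.9% and 84.0% of het ones were EGFP-high, against 0.225% to 1.09% of erythroid-gate barcodes. The lowest EGFP-high cell had 10.95 and 11.4 EGFP UMIs per 10000 in KO and 19.6 and 10.6 in het, and the highest cell below the limit had 8.08 and 1.84 in KO and 6.70 and 4.0 in het.

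Of the EGFP-high macrophages 1 of 31 was called a doublet. No UMI of Cdh5, Emcn or Plvap, which the gate capped at 1, was found in 3 of 6 and 5 of 6 EGFP-high macrophages of KO and 4 of 6 and 12 of 13 of het, against 230 of 287 and 52 of 66 EGFP-low ones of KO and 106 of 138 and 141 of 175 of het. The red reporter, which no rule used, stood at 1.13 and 1.55 dsRed UMIs per 10000 in EGFP-high macrophages of KO, against 3.21 and 2.87 in EGFP-low ones. In het it stood at 1.05 and 0.839 in EGFP-high macrophages, against 2.73 and 2.90 in EGFP-low ones. EGFP-high macrophages were deeper in KO, with medians of 36925 and 62432.5 UMIs against 23192 and 46249 in EGFP-low ones, but not in het 1, with 24298.5 against 26738, and hardly in het 2, with 30136 against 29582.

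**Figure D4:**
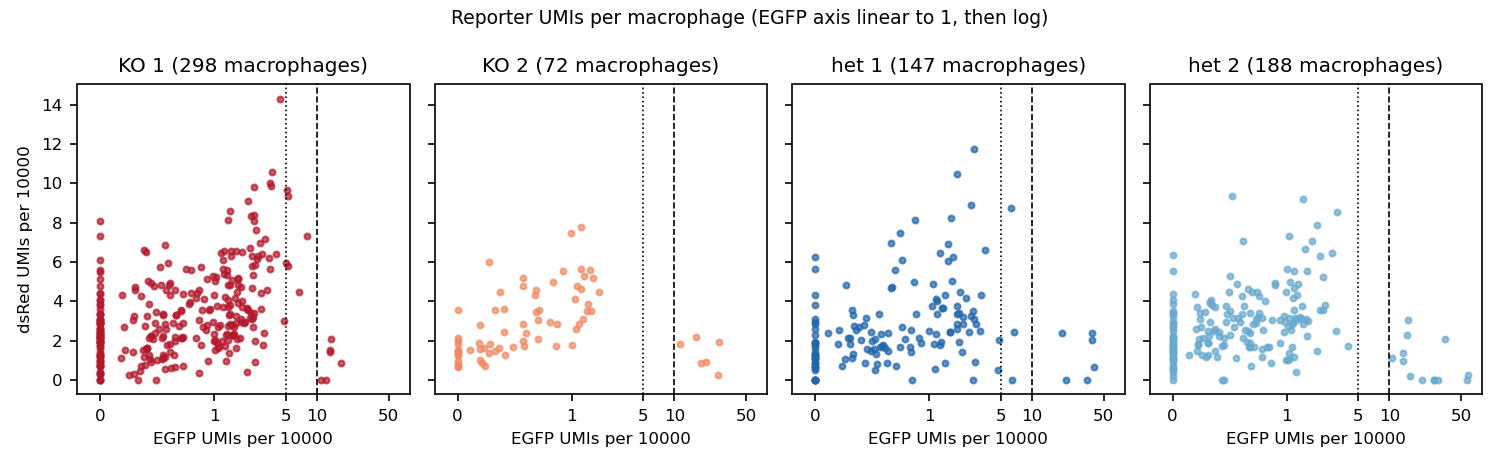
EGFP UMIs per 10000 (horizontal axis, linear to 1 and then log) and dsRed UMIs per 10000 (vertical axis) of each macrophage with at least 10000 UMIs, 1 panel per library, with the limits of 10 (dashed) and 5 (dotted). A small group lies to the right of the dashed line in each library, 6 and 6 cells in KO and 6 and 13 in het, at 0 to 3.04 dsRed UMIs per 10000.

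Some genes of resident macrophages and of iron handling were lower, and a few of monocytes higher, in EGFP-high than in EGFP-low macrophages. The test summed each class per library, with the library as a block, over 9681 genes, and EGFP, which set the classes, is not read. It called 8 genes higher (0.0826%) and 39 lower (0.403%) in EGFP-high cells at an adjusted p of 0.05 by edgeR. Dropping het 2, which holds 13 of the 31 cells, left 3 calls, 1 of them among the 47. Nearly all of the calls thus passed the threshold only with that library included. Whether its number of cells or its values mattered was not tested. The other 3 libraries each hold 6 cells, and 18 to 112 genes were called without one of them.

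Of 9 tested monocyte genes 6 stood above and 3 below 0, and 2 were called higher, Plac8 and Ccr2. Plac8, a gene of monocytes and other young blood cells, had 3 and 84 UMIs in EGFP-high macrophages of KO and 10 and 151 in those of het. It was found in 17 of 31 EGFP-high macrophages, against 57 of 666 EGFP-low ones, a log2 difference of 3.08 (adjusted p = 0.0098 by edgeR), but in KO 1 its level was 11.2 CPM in EGFP-high and 11.9 CPM in EGFP-low cells. Ccr2 had 1 and 27 UMIs in EGFP-high macrophages of KO and 0 and 67 in those of het, in 11 of 31 cells against 29 of 666, a log2 difference of 3.12 (adjusted p = 0.0375). Nearly all of the Ccr2 UMIs of EGFP-high cells thus came from KO 2 and het 2, and in het 1 the level was 0 CPM in EGFP-high and 8.18 CPM in EGFP-low cells. Also higher were Ifitm1 (2.43), Rabgap1l (2.15), Tspan32 (2.09), Zfpm1 (2.0), 1600014C10Rik (1.27) and Ccnd2 (1.17). Ifitm1 had 3 and 3 UMIs in EGFP-high macrophages of KO and 1 and 51 in those of het, in 6 of 31 cells. Of these UMIs 44 lay in 1 cell. The highest count in 1 EGFP-high cell was 44 for 1600014C10Rik, 25 for Zfpm1, 22 for Rabgap1l, 13 for Ccnd2 and 7 for Tspan32. Cd74 had a log2 difference of 2.25 and was not called (adjusted p = 0.0642).

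Of 15 tested resident-type genes 6 were called lower, and of 13 iron and heme genes 4. Slc40a1, the iron exporter ferroportin, had 108 and 32.7 CPM in EGFP-high macrophages of KO and 105 and 56.6 CPM in those of het, against 315 and 203 CPM in EGFP-low macrophages of KO and 205 and 295 CPM in those of het, a log2 difference of -1.92. Every EGFP-high value lay below every EGFP-low value. F13a1 had 808 and 734 CPM in EGFP-high macrophages of KO and 161 and 176 CPM in those of het, against 1948 and 1282 CPM and 1519 and 1037 CPM in EGFP-low macrophages of KO and of het, a log2 difference of -1.83 (adjusted p = 0.0174 by edgeR). The genes dsRed (-1.35), Hmox1 (-2.03), Blvrb (biliverdin reductase B, -1.13), Apoe (-0.86), Folr2 (-1.93), Ccl7 (-2.71) and Gfra2 (-2.40) fell too. Upk3b, a mesothelial gene, was found in 0 of 31 EGFP-high and 53 of 666 EGFP-low macrophages. All 15 tested resident-type genes had a log2 difference below 0, with a median of -1.13 beside 0.007 over all genes tested. Pf4, at -1.04 (not called), had 2427 CPM in EGFP-high cells of KO 1 against 681 CPM in EGFP-low ones, and was lower in the other 3 libraries. Lyve1 (-1.13, adjusted p = 0.186) and Mrc1 (-0.98, adjusted p = 0.0742) were not called. Of 15 chemokines and cytokines 4 were called lower.

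Genes that mark other cells were uneven between the classes, and their part in these results was not tested. S100a8 (neutrophils) was found in 6 of 31 EGFP-high and 20 of 666 EGFP-low macrophages, Mpo (granulocyte precursors) in 4 of 31 and 14 of 666, and Kit (progenitors and mast cells) in 3 of 31 and 7 of 666. The globin Hbb-bs (-2.26) and the collagens Col1a1 (-1.87) and Col1a2 (-1.99) were called lower in EGFP-high macrophages. Their shares of cells were not lower. Col1a1 was found in 9 of 31 EGFP-high and 173 of 666 EGFP-low macrophages, and Col1a2 in 9 of 31 and 134 of 666. Hbb-bs was found in 31 of 31 and 664 of 666. The highest counts in 1 EGFP-low cell were 133 for Col1a1, 178 for Col1a2 and 10329 for Hbb-bs. In EGFP-high cells they were 11, 6 and 1078.

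Blood cell identity and division did not pass the test between the classes. Ptprc (CD45, the pan-leukocyte phosphatase) had a log2 difference of 0.19 (adjusted p = 0.827), Csf1r -0.65 (0.0928), Cx3cr1 -0.48 (0.135) and Mki67 0.30 (0.611), all by edgeR. The G1/S list had 19 of 20 genes above 0 with a median of 0.32 and none called. C1qa was lower by -1.10 in EGFP-high cells, but it is a gene of the gate and is given as a description only.

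**Figure D5:**
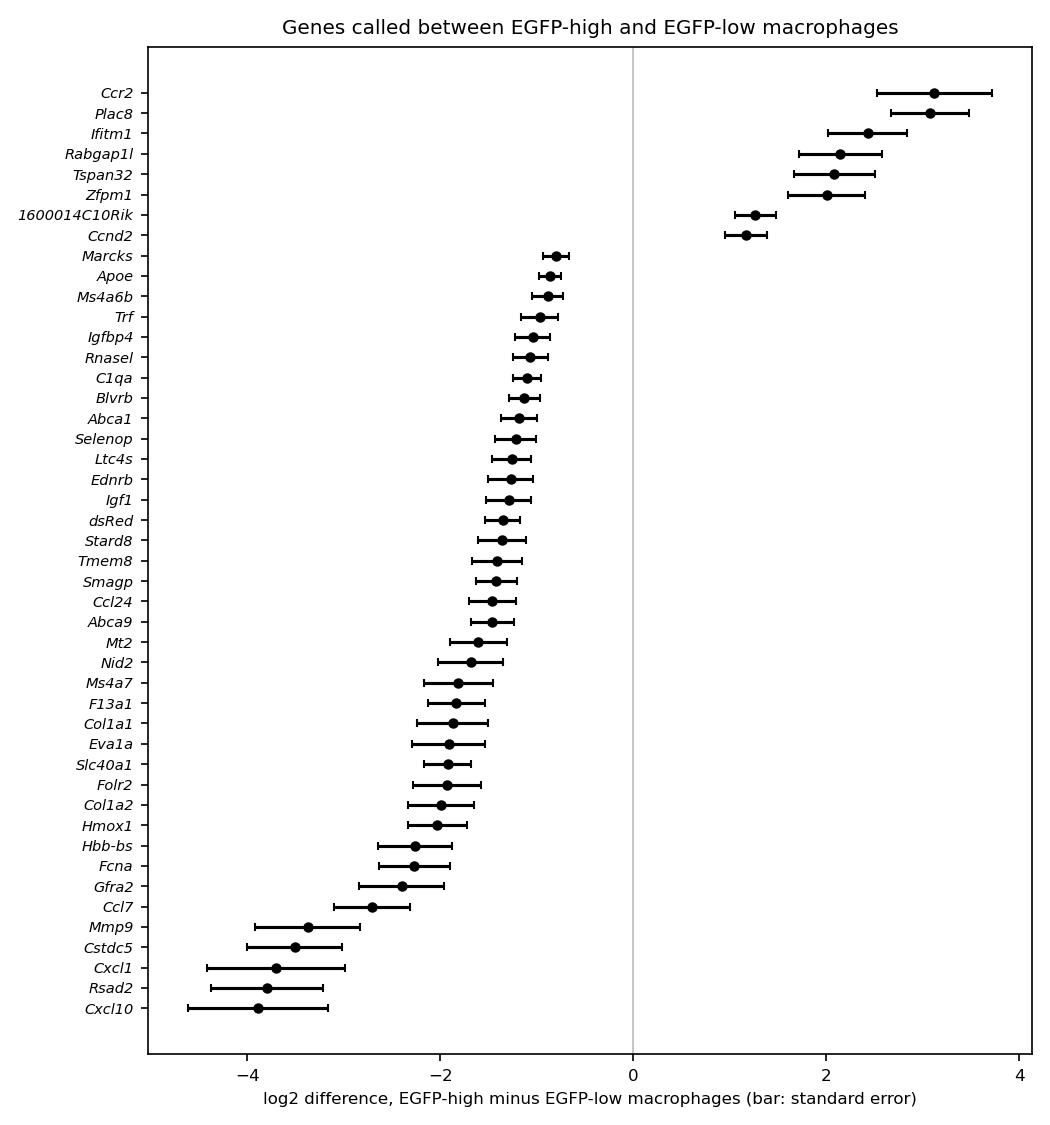
Log2 difference of the genes called between EGFP-high and EGFP-low macrophages (points, with SE as bars), except Upk3b, which is at 0 in EGFP-high cells. Plac8 (3.08) and Ccr2 (3.12) lie farthest to the right, while Hmox1, Folr2, Slc40a1 and F13a1 lie left of 0.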

How the data were processed

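Single-cell libraries of mouse embryonic ventricle, 2 KO and 2 het, were read from raw UMI counts per gene and barcode as deposited by the authors, per the file headers. The headers and the submitters' processing notes name Cell Ranger 6.0.1, Seurat and mm10. The labels conflict on the kit, 3′ v2 or a later one. The matrices held 171252072 and 137890971 UMIs in KO 1 and KO 2, and 156491597 and 190207638 in het 1 and het 2, over 55405 genes, of which 107 symbols stand on several rows and 4 are added sequences (EGFP, dsRed, FloxGata4 and FloxGata4_ctrl). Positions were looked up in GENCODE M21 (GRCm38), which matched 54349 identifiers and may not be the authors' annotation. Whether counting used strand is not given in the sources used here.

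The members and gene lists were chosen with earlier results of these data known. UMIs of gated macrophages were summed per library, filtered with filterByExpr (minimum count 10, minimum total 15), scaled by TMM and tested in edgeR 4.0.16 (R 4.3.3; quasi-likelihood, Benjamini-Hochberg adjustment at 0.05 over all genes tested); the script was tested on simulated data. DESeq2 1.42.0 and limma-voom 3.58.1 were alternatives. Thinning drew 2000 UMIs per cell without replacement. Doublets were scored with Scrublet in scanpy 1.11.5 (expected rate 0.1), with the threshold of het 2 (0.306) used in all libraries. The EGFP comparison was added after the data were seen. Genes were named by rule: Gata4 and Neil2, the genes of lowest p with at least 20 CPM and groups apart, list members of lowest p or highest level, the 20 leading and 15 most variable genes, and 5 per direction of the interaction. Outside the lists, genes that differ by sex and globin, mitochondrial, ribosomal and unnamed genes were left out of naming. Some genes that the rule names are not reported here. In the EGFP comparison, called genes and list members were named after their values were seen. Replicate 1 minus replicate 2 correlated between groups (r = 0.566 over 6277 genes), but with 2 pairs and no meaning given to the numbers in the labels, no pairing was assumed.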

Additional observations from a re-analysis of the deposited data

How the results depend on the processing

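Between KO and het macrophages, 0 genes were called under RLE scaling, library totals, limma-voom, a C1q minimum of 10, and without doublets, globin-rich or shallow cells; 1 was called by DESeq2, 99 without the filter on low counts, and 0 to 46 with 1 library left out (32 without KO 1, 46 without KO 2), where the lone library is assumed to vary like the others. List members called numbered 1 by DESeq2, 40 without the filter and 0 to 18 with 1 library left out. With a replicate block, a fit on numbers the labels give no meaning, 0 genes were called and 755 had an unadjusted p under 0.05. The interaction called 158 genes without the filter and 3 to 211 with 1 library left out. The EGFP comparison, whose alternatives were all chosen after seeing the data, called 363 genes without the filter, 80 by DESeq2, 20 by limma-voom and 3 to 112 with 1 library left out. The cause of these moves was not tested.

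Directions turned, KO minus het in percentage points, for the share of macrophages (-3.98 to 0.450 with 1 library left out, 0.227 without KO 2) and of EGFP-high macrophages (-3.48 to 2.84 with 1 library left out, 1.09 without het 2). For shares of cells with a UMI they turned for Ccr2 (-2.01 to 0.825 with 1 library left out, 0.504 without KO 1), for Cx3cr1 (5.89 at 3000 UMIs, 3.53 not thinned, 6.36 without doublets, -6.52 to 6.09 with 1 library left out), for Timd4 (-0.00920 at 3000 UMIs), for Folr2 (5.55 at 3000 UMIs, 16.3 not thinned, -1.78 to 1.52 with 1 library left out), for EGFP (6.49 not thinned) and for dsRed (-0.424 at 3000 UMIs). On the log2 scale they turned for Gata4 in macrophages (0.050 in cells with at least 10000 UMIs), Timd4, KO minus het (-1.38 to 0.27 with 1 library left out) and Lpl, KO minus het (-0.91 to 0.21). Shares in KO 2 are limited by cell number, as they rest on 80 cells. Low depth limits het 1, where 9 macrophages had under 2000 UMIs and 62 under 3000.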

Other observations

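EGFP UMIs were also counted over all macrophages, EGFP-high cells included. At 2000 UMIs an EGFP UMI was found in 20.6% and 17.5% of KO macrophages and in 25.9% and 19.5% of het macrophages, against 6.87% and 2.20% of KO and 23.1% and 7.17% of het erythroid-gate barcodes. In het 1 the 95% Wilson intervals of macrophages (21.6 to 30.8) and erythroid-gate barcodes (19.9 to 26.6) overlap. Among EGFP-low macrophages, EGFP and dsRed UMIs per 10000 moved together, with Pearson's r of 0.51 and 0.65 in KO (287 and 66 cells) and 0.31 and 0.37 in het (138 and 175 cells). This is a description over cells that share a library, and EGFP itself also set the class.

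Of the other added sequences, FloxGata4 had 0 UMIs in the macrophages of every library, and FloxGata4_ctrl had 2 and 0 UMIs in KO and 0 and 1 in het. What these sequences cover is not given in the labels.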
